A study of Mus musculus with 4 samples.

Results

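The genes described here encode the subunits of the mitochondrial respiratory chain and of ATP synthase, together with assembly factors and a few other genes whose symbols share a prefix with them. A gene was a member when its single platform symbol began with Nduf, Uqcr, Atp5 or Cox4 to Cox8, or was Sdha, Sdhb, Sdhc, Sdhd or Cyc1, and each gene was represented by its probe set of highest mean over the arrays. The rule used no comparison between groups. It found 91 of the 18193 genes measured under a single symbol: 34 of complex I, 4 of complex II, 9 of complex III, 19 of complex IV, 17 of complex V and 8 assembly factors of complex I. Ndufa4 was placed in complex IV, where it is now counted as a subunit. The 19 of complex IV also hold 7 tissue isoforms, and Cox7a2l and Ndufa4l2, which were not classed as structural subunits.

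The RNA came from hair follicle stem cells (HFSCs), which renew the hair follicle, sorted by flow cytometry from the skin of C57BL/6 mice at postnatal day 4. There were 2 arrays of miR-205 KO cells and 2 of wild-type (WT) cells, which the titles number 1 and 2 in each group. The labels call these biological replicates and do not say whether each is 1 animal or a pool, so any p-value here reflects only the spread among these arrays, which may be technical. How miR-205 was deleted, and in which cells, is not given in the labels. The treatment note carried by all 4 samples describes doxycycline given to K14-rtTA/TRE-miR-203/K14-H2BGFP mice and TRE-miR-203/K14-H2BGFP littermates, names no miR-205 allele, and was not used to form groups. Values are on the log2 scale after RMA, in which array background is corrected, arrays are quantile-normalized and each probe set's probes are merged into 1 value.

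Mature miR-205 is not measured by these arrays. Mir205hg, the host transcript of the miRNA, had log2 values of 6.52 and 6.13 in the KO arrays, against 5.81 and 5.30 in the WT arrays, a difference of 0.77 (SE 0.26). Whether the deletion covers this probe set is not given, so it does not check the labels. Of 12 HFSC markers, 10 lay above the median gene, with array medians of 10.05 to 10.32. The exceptions were Fgf18 and Dio2, and Cd34 was at 6.87 and 6.69 in KO arrays, against 8.32 and 6.20 in WT arrays. Xist was at 5.26 and 5.45 in KO arrays, against 13.28 and 13.19 in WT arrays, while the Y-linked Eif2s3y was at 9.59 and 9.57 in KO arrays, against 3.05 and 2.86 in WT arrays. Sex and genotype therefore cannot be told apart in any KO comparison here. The median of 12 dermal fibroblast markers was 9.60 in KO 1 and 8.96 in KO 2, against 10.67 in WT 1 and 8.75 in WT 2. WT 1 was the highest array in 11 of the 12, and both number 2 arrays lay below both number 1 arrays in 11 (22.0% of all genes). The KO mean was below the WT mean in all 12 (median difference -0.44), though no marker had KO arrays clear of WT arrays. Of 5 endothelial markers, 1 of them above the median gene, 3 had KO arrays below WT arrays (5.7% of all genes) and 0 above. KO arrays lay above WT arrays in 3 of 12 HFSC and 2 of 5 basal keratinocyte markers (8.2% of all genes), and below in 0. In RNA from a bulk sort, fewer cells of a type and less RNA per cell cannot be told apart.

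Complexes I to IV pass electrons from NADH and succinate through ubiquinone and cytochrome c to oxygen. Complexes I, III and IV pump protons across the inner mitochondrial membrane, and complex V, the ATP synthase, uses the return of those protons to make ATP. All the members here are encoded in the nucleus, while a small set of core subunits of complexes I, III, IV and V is encoded in mitochondrial DNA. Many nuclear promoters of this group are known targets of the transcription factors NRF1, GABPA (an ETS-family factor) and YY1.

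The 2 arms of the miRNA deleted in the KO cells are shown first, from RefSeq on GRCm38.p6, because the study turns on their loss. Capitals mark the seed, bases 2 to 8 from the 5′ end, and the seeds of the arms differ from each other. No search for target sites was made.
mmu-miR-205-5p (chr1:193507503-193507524, minus strand): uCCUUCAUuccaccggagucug
mmu-miR-205-3p (chr1:193507467-193507488, minus strand): gAUUUCAGuggagugaagcuca

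RefSeq promoter windows on GRCm38.p6, running from 250 bases before to 50 bases after each transcript start, were found for 74 of the 91 members (79 windows). The NRF1 letters GCATGCGC, sought on both strands, stood in 13.9% of the member windows and in 2.71% of all 32851 windows. The YY1 letters AAGATGGC stood in 12.7% of the member windows, against 2.75% of all windows. The ETS letters CCGGAAGT were present in 6.33% of member windows and 3.89% of all windows. The GC box GGGCGG was present in 45.6% and 35.7%, the CCAAT box in 41.8% and 37.4%, and the TATA box letters TATAAA in 11.4% and 13.6%, member windows first in each pair. Member windows were also richer in G and C, with a median of 59.0% and 20 CpG sites, against 52.7% and 7 CpG sites in all windows. These shares describe the letters and were not tested.

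The YY1 letters were found in 6 of 31 complex I genes with a window (Ndufa3, Ndufa9, Ndufb8, Ndufc1, Ndufs4 and Ndufs7) and in 3 of 15 complex V genes (Atp5j, Atp5j2 and Atp5pb). They were in none of the 3 complex II, 5 complex III and 13 complex IV genes. The NRF1 letters were spread over all the complexes, in 2 of 31 genes of complex I, 1 of 3 of complex II, 2 of 5 of complex III, 1 of 13 of complex IV and 3 of 15 of complex V. Windows are printed below for Ndufb7 and Ndufa4, the members of largest positive KO-WT difference, for Uqcrc1, the member of smallest p between numbers and a carrier of the NRF1 letters, and for Ndufs7, the core complex I subunit of largest number difference and a carrier of the YY1 letters. Capitals mark motif letters on either strand; the Ndufb7 match reads as a TATA box on the opposite strand, and the NRF1 letters in Uqcrc1 match on both strands, offset and overlapping.
Ndufb7 (chr8:83566508-83566807, plus strand): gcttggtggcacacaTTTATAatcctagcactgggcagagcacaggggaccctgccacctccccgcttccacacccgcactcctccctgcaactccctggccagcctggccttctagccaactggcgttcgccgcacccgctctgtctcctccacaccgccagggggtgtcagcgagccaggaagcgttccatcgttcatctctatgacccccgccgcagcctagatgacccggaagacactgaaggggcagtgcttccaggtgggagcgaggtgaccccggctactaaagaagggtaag
Ndufa4 (chr6:11907401-11907700, minus strand): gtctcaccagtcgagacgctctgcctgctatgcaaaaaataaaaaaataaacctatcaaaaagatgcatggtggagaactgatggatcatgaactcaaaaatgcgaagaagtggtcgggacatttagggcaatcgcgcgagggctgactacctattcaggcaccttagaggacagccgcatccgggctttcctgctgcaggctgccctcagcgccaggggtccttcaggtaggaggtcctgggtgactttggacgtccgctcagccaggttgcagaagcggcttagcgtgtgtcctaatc
Uqcrc1 (chr9:108936398-108936697, plus strand): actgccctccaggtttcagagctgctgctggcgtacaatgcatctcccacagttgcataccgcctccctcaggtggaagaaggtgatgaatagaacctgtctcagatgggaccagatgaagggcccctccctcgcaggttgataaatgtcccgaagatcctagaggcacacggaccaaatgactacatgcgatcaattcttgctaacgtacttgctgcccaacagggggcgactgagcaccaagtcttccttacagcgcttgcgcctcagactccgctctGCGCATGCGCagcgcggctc
Ndufs7 (chr10:80249199-80249498, plus strand): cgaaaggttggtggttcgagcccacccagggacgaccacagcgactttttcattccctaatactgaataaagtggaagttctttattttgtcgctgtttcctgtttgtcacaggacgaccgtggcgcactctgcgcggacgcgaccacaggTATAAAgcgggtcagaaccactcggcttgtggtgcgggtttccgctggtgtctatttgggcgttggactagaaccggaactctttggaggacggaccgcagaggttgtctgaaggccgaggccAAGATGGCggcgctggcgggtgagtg

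The respiratory chain genes were among the brightest on the arrays. The median member had a log2 value of 11.29, against 6.88 for the median gene, and 69 of the 91 members were in the top 10% of genes by level. The medians over the members were 11.22 in KO 1 and 11.33 in KO 2, against 11.29 in WT 1 and 11.30 in WT 2. The 6 members below the median gene were Cox7b2 (mean 3.41), Cox7a1 (4.12), Ndufb4 (4.69), Cox8b (5.31), Cox4i2 (5.52) and Ndufa4l2 (6.66). For Ndufb4 the brighter probe sets carry several symbols (Ndufb4, Ndufb4b and Ndufb4c) and the rule left them out. One of those had 10.98 and 11.26 in KO arrays, against 11.10 and 11.25 in WT arrays, so the dim Ndufb4 value describes 1 probe set and not the gene. In 23 members 2 or more arrays held the same value to every deposited digit, as in 47.1% of all probe sets.

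By complex, the median member value of complex I was 11.17 and 11.17 in the KO arrays, against 11.15 and 11.08 in the WT arrays. For complex II it was 10.72 and 10.78 in KO, against 10.63 and 10.62 in WT. For complex III it was 11.39 and 11.39 in KO, against 11.31 and 11.48 in WT. The complex IV median was 11.06 and 11.07 in KO, against 11.14 and 11.11 in WT. The complex V median was 11.99 and 12.08 in KO, against 12.05 and 12.13 in WT. Assembly factors, which build complex I and are not part of it, had medians of 8.40 and 8.47 in KO, against 8.33 and 8.31 in WT. Probe sets differ in how they hybridise, so these levels describe each complex and were not ranked against each other.

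**Figure D1:**
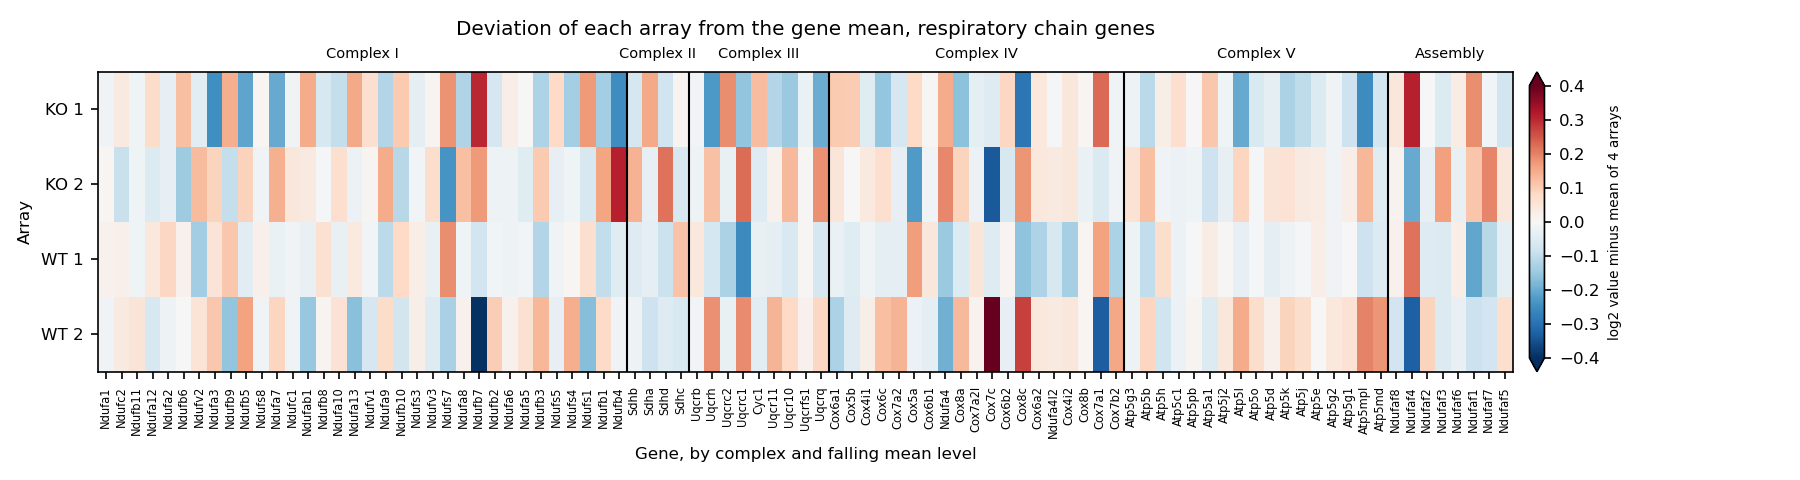
Heat map of each of the 91 genes (columns, grouped by complex and ordered by falling mean level) on each of the 4 arrays (rows, KO above WT), coloured by the log2 value minus the gene's mean over the 4 arrays. Both KO arrays lie above both WT arrays in 10 genes and below them in 7 (8.2% and 5.7% of all genes), and both number 2 arrays lie above both number 1 arrays in 34 genes and below them in 20 (21.7% and 22.0% of all genes).

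Little separated KO from WT cells across the respiratory chain. The largest positive differences were in Ndufb7 and Ndufa4, and the largest negative one was in Cox7c, none of which passed the test over all genes. With limma and Benjamini-Hochberg adjustment over the 18193 genes, 0 of the 91 members passed an adjusted p of 0.05 (0.011% of all genes did, namely Xist and Eif2s3y), and every member had an adjusted p of 1. At an unadjusted p of 0.05, 3 members were higher and 0 were lower in KO cells; 1.15% of all genes were higher and 0.726% lower by the same threshold. Both KO arrays lay above both WT arrays in 10 members (background 8.2%) and below them in 7 (background 5.7%). These shares, 11.0% and 7.69% of the members, are near the background.

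The median KO-WT difference over the members was -0.01, against 0.008 over all genes, with 41 members above 0 and 50 below. The difference was above 0 in both numbers for 21 of the 91 members and below 0 in both for 29. Over all genes 24.0% were above 0 in both and 16.8% below, so a larger share of the members was below. In complex V, 1 of 17 was above 0 in both and 8 were below. These shares were not tested. Only 4 members differed by more than 0.2 in either direction. By complex the median difference was -0.0046 for complex I (15 of 34 above 0), 0.09 for complex II (3 of 4), -0.02 for complex III (3 of 9), -0.01 for complex IV (8 of 19) and -0.03 for complex V (6 of 17). The assembly factors had a median of 0.08, with 6 of 8 above 0. Some of these medians depended on single arrays, while the complex I median stayed between -0.014 and -0.0015 with any array left out. Without KO 2 the complex II median was -0.01 and the complex III median -0.12, without KO 1 the complex III and IV medians were 0.05 and 0.03, and without WT 2 the assembly factor median was 0.03.

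**Figure D2:**
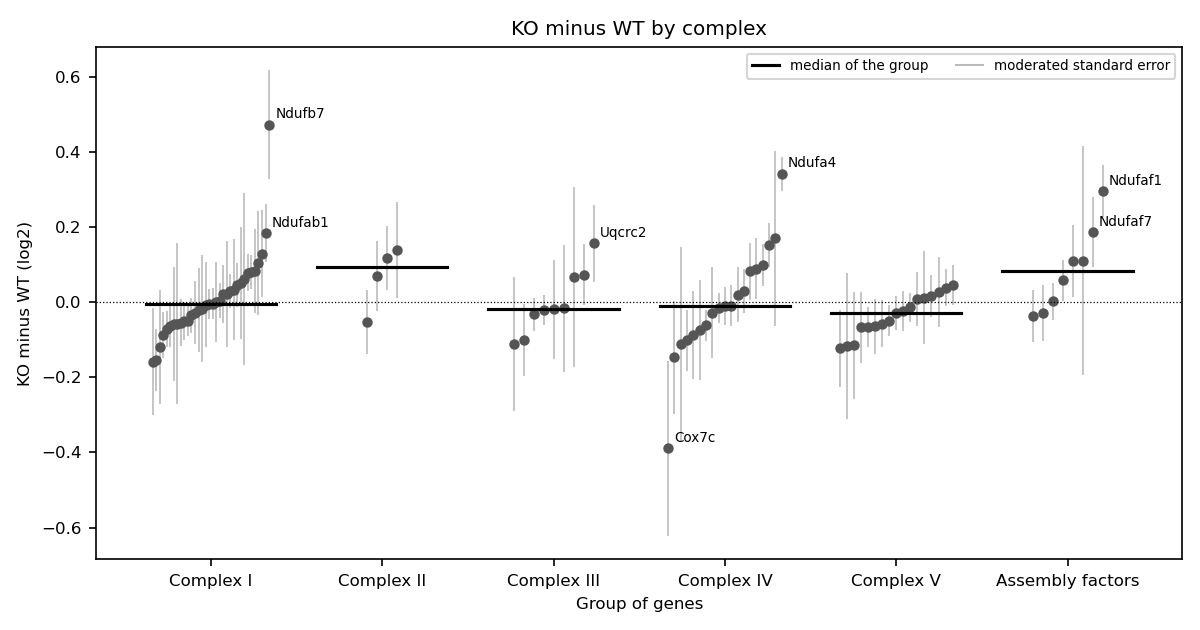
KO minus WT difference on the log2 scale (vertical axis) for each gene, by complex (horizontal axis). Points are genes, grey bars the moderated standard errors from limma and black lines the group medians; the medians lie between -0.03 and 0.09, with Ndufb7 at 0.47, Ndufa4 at 0.34 and Ndufaf1 at 0.29 above the rest and Cox7c at -0.39 below.

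In complex I, the core subunits carry the flavin and the iron-sulphur clusters. Ndufv1, the subunit that binds NADH, had 11.18 and 11.13 in KO arrays, against 11.11 and 11.05 in WT arrays, a difference of 0.08 with a moderated standard error (SE) of 0.05. Ndufs1, the largest subunit of the electron-accepting arm, had 10.12 and 9.89 in KO, against 10.02 and 9.78 in WT. Ndufs7 had 10.92 and 10.51 in KO, against 10.93 and 10.61 in WT, and Ndufs8 had 11.54 and 11.52 in KO, against 11.55 and 11.52 in WT. In Ndufs1 and Ndufs7 the arrays fall apart by number, with both number 2 arrays below both number 1 arrays, and the genotypes overlap.

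Among the accessory subunits of complex I, Ndufb7 stood highest in KO cells. It had 10.97 and 10.84 in KO arrays, against 10.59 and 10.27 in WT arrays, so the groups did not overlap. The difference was 0.47 (SE 0.14, a 1.39-fold ratio), with an unadjusted limma p of 0.045 and an adjusted p of 1, and was 0.31 without WT 2. A second probe set of Ndufb7 gave 10.52 and 10.62 in KO, against 10.12 and 10.09 in WT, a difference of 0.46 (SE 0.06). The probe sets target the same gene on the same RNA, and both place the KO arrays above the WT arrays. Ndufab1, the mitochondrial acyl carrier protein, had 11.49 and 11.38 in KO, against 11.31 and 11.19 in WT (difference 0.18, SE 0.08).

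Ndufs4, an accessory subunit whose loss causes a Leigh-like disease in mice, lay the other way. Its brightest probe set had 9.83 and 9.95 in KO arrays, against 9.97 and 10.11 in WT arrays, a difference of -0.15 (SE 0.08). The 3 dimmer probe sets of Ndufs4 differed by -0.29, -0.19 and -0.06. Ndufa3 had 11.36 and 11.70 in KO, against 11.66 and 11.72 in WT, and its groups overlapped. Its difference of -0.16 (SE 0.14) was -0.33 when KO 2 was left out and 0.008 when KO 1 was left out. The X-linked subunits Ndufa1 and Ndufb11 differed by -0.0040 (SE 0.04) and -0.03 (SE 0.05) beside the sex difference of the arrays.

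Ndufaf1, an assembly factor for the membrane arm of complex I, had 8.35 and 8.27 in KO arrays, against 7.95 and 8.08 in WT arrays. The groups did not overlap and the difference was 0.29 (SE 0.07), with an unadjusted limma p of 0.023 and an adjusted p of 1. Ndufaf7, another assembly factor of complex I, had 7.996 and 8.204 in KO, against 7.896 and 7.931 in WT. Ndufaf4 had 9.48 and 8.97 in KO, against 9.39 and 8.85 in WT, and was set apart by number instead.

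Complex II links the tricarboxylic acid cycle to the chain. Sdha, its flavin-bearing catalytic subunit, had 10.93 and 10.75 in KO arrays, against 10.75 and 10.70 in WT arrays, with a difference of 0.12 (SE 0.09). The KO 2 and WT 1 values were less than 0.01 apart. A second Sdha probe set, whose suffix _s_at marks probes that other transcripts may share, had 10.47 and 10.24 in KO, against 9.56 and 9.50 in WT. That difference of 0.82 (SE 0.10, adjusted p = 1 with limma over all probe sets) was far larger than the 0.12 of the probe set used. The cause of the gap between them was not tested. The iron-sulphur subunit Sdhb differed by 0.07 (SE 0.09), and the membrane anchors Sdhc and Sdhd by -0.05 (SE 0.09) and 0.14 (SE 0.13).

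In complex III none of the 9 members had KO arrays clear of the WT arrays (8.2% of all genes above, 5.7% below). Uqcrc2, a core protein of the matrix side, had 12.12 and 11.91 in KO arrays, against 11.81 and 11.91 in WT arrays, a difference of 0.16 (SE 0.10). The Rieske iron-sulphur protein Uqcrfs1 differed by -0.02 (SE 0.04) and cytochrome c1, Cyc1, by 0.07 (SE 0.08). Uqcr10 depended on the probe set. The brightest gave 10.97 and 11.25 in KO, against 11.06 and 11.20 in WT (difference -0.02), while a dimmer one gave 7.71 and 7.83 in KO, against 6.88 and 7.83 in WT (difference 0.41, SE 0.39), where WT 1 stood alone. Another dim probe set also had its lowest value in WT 1, at 6.90.

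In complex IV, Ndufa4 had the smallest p of all members. It had 12.001 and 12.044 in KO arrays, against 11.703 and 11.659 in WT arrays, with no overlap and little spread within groups. The difference was 0.34 (SE 0.05, a 1.27-fold ratio), with an unadjusted limma p of 0.0043 and an adjusted p of 1. Cox6a1, the common form of subunit 6a, had 13.90 and 13.85 in KO, against 13.77 and 13.67 in WT (difference 0.15, SE 0.06). Cox5b, a zinc-binding subunit, differed by 0.10 (SE 0.06). Cox4i1 and Cox5a, which are added early in assembly, differed by -0.01 (SE 0.05) and -0.15 (SE 0.15).

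Cox7c carried the largest negative difference, and on the probe set used it rested mostly on 1 array. It had 8.40 and 8.12 in KO arrays, against 8.40 and 8.90 in WT arrays, and the groups overlapped at the number 1 arrays. The difference of -0.39 (SE 0.23) was -0.14 without WT 2. A second, dimmer probe set had 6.37 and 6.33 in KO, against 6.61 and 7.19 in WT, again with WT 2 the highest. On that probe set the groups did not overlap, and the difference was -0.55 (SE 0.24).

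The tissue isoforms of complex IV are known from heart and skeletal muscle (Cox6a2, Cox7a1, Cox8b), lung (Cox4i2) and testis (Cox6b2, Cox7b2, Cox8c). Their median level was 5.52, and 3 of these 7 lay above the median gene: Cox6b2 (mean 8.22), Cox8c (7.91) and Cox6a2 (6.96). Their common partners Cox6b1, Cox8a and Cox6a1 had means of 12.62, 11.79 and 13.80, each on its own probe set. No tissue isoform of these 7 had KO arrays clear of WT arrays (8.2% of all genes above, 5.7% below). Skeletal muscle markers had array medians of 5.37 to 5.46, below the median gene on all 4 arrays.

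In complex V no member stood out. The differences ran from -0.12 to 0.05 over the 17 members, and in none were both KO arrays above both WT arrays (8.2% of all genes). The lowest was that of Atp5md, at -0.12 (SE 0.10), where the groups overlapped. The catalytic subunits Atp5a1 and Atp5b differed by 0.03 (SE 0.09) and 0.01 (SE 0.12). Atp5b had 12.76 and 12.99 in KO arrays, against 12.77 and 12.96 in WT arrays, a spread within each genotype well over the spread between them. Atp5j2, a subunit of the membrane domain, was the 1 member with both KO arrays below both WT arrays, by -0.05 (SE 0.04). That is 5.9% of the members of complex V, against 5.7% of all genes.

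**Figure D3:**
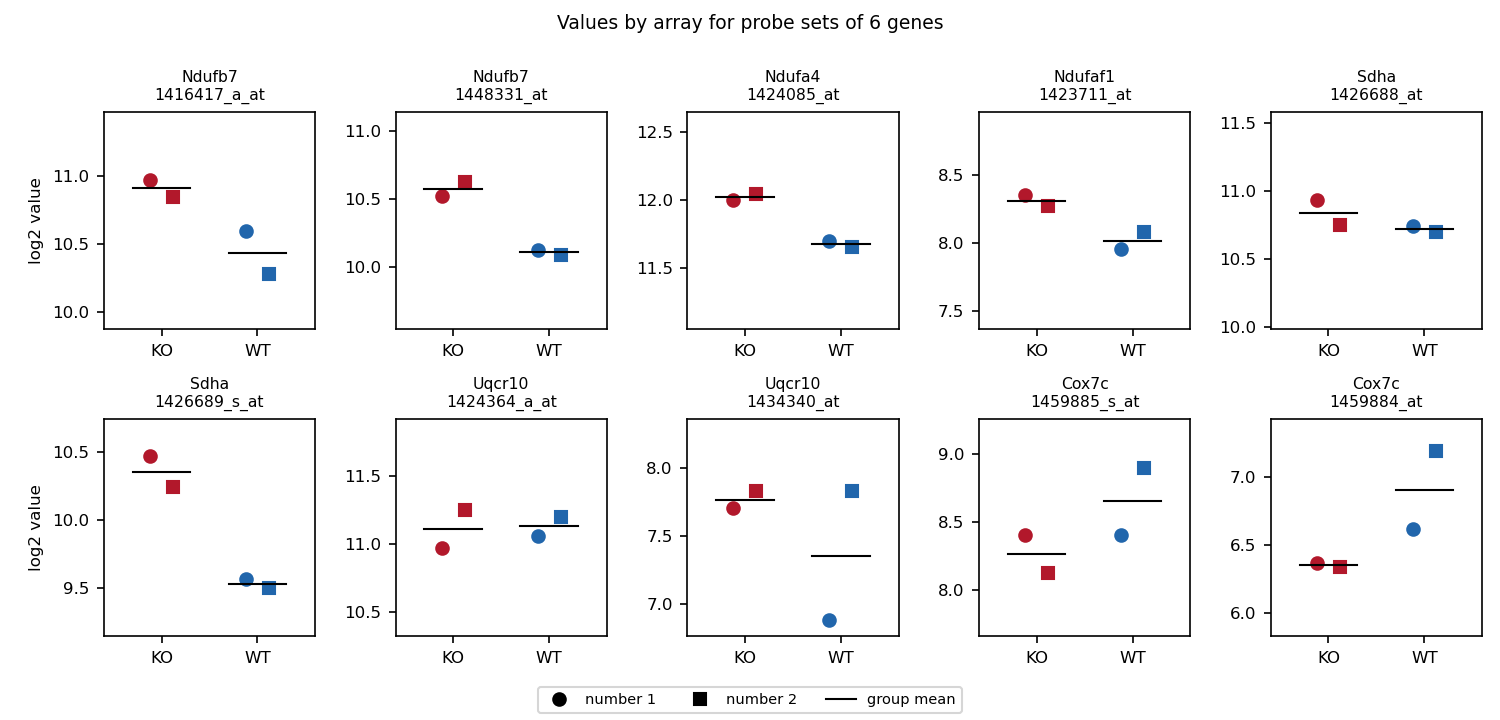
log2 value (vertical axis, each panel with its own offset) in the KO and WT arrays for 10 probe sets of 6 genes. Red points are KO and blue points WT, circles number 1, squares number 2 and lines the group means; both Ndufb7 probe sets separate the groups by about the same amount (0.47 and 0.46), while the Sdha pair differ (0.12 and 0.82).

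Other probe sets of the same genes could be set beside the ones used in 51 members. Of these 89 other probe sets, 59 had the same sign of the KO-WT difference. Among the 62 that lay above the median gene, 45 had the same sign, and the correlation with the difference of the probe set used was 0.62 over those 62, which share arrays and genes. Of all 180 member probe sets, 0 had an adjusted limma p under 0.05, as did 0 of all 34945 probe sets (0.0%). An unadjusted limma p under 0.05 was found in 7 of the 180. The share of all probe sets past that threshold was not counted, so the 7 cannot be set against a background.

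Nuclear genes around the respiratory chain were described in the same fit, where 8.2% of all genes had KO arrays above WT arrays and 5.7% below. Of 39 measured genes for cytochrome c and for chain assembly, 6 had KO arrays above WT arrays and 0 below, with a median difference of 0.04 (15.4% above). Cox17, a copper chaperone for complex IV, had 9.78 and 9.78 in KO, against 9.46 and 9.58 in WT (difference 0.26, SE 0.06), and Coa6, another complex IV assembly factor, had 9.26 and 9.02 in KO, against 8.84 and 8.76 in WT (difference 0.34, SE 0.11). The 24 regulators of mitochondrial biogenesis had a median of -0.00036 with 4 above and 0 below. The 76 mitochondrial ribosomal proteins had a median of 0.02 with 10 above and 4 below (13.2% and 5.26%), among them Mrpl19 (0.28, SE 0.08) and Mrpl15 (0.22, SE 0.07). For 12 genes of ubiquinone synthesis the median was 0.05 (2 above, 0 below), for 16 of the tricarboxylic acid cycle 0.03 (0 above, 1 below) and for 14 of glycolysis 0.03 (0 above, 1 below). No gene of these lists passed an adjusted p of 0.05 with limma, and Cox17 and Mrpl19 alone passed an unadjusted one.

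More members were set apart by replicate number than by genotype, as were more of all genes. With number 2 over number 1 as the contrast, 0 members passed an adjusted p of 0.05 with limma (background 0.0%), and the lowest adjusted p was 0.18. At an unadjusted p of 0.05, 16 members were higher in number 2 (8.2% of all genes) and 7 lower (9.5% of all genes). Both number 2 arrays lay above both number 1 arrays in 34 members, 37.4%, against 21.7% of all genes. They lay below in 20 members, 22.0%, which equals the background of 22.0%. After a further quantile normalization these counts were 47 (30.7% of all genes) and 12 (24.7%), and after centring each array on its median they were 44 (41.6%) and 15 (19.5%), so the excess of higher members was kept and its size depended on the scaling. What a number stands for is not given in the labels.

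Complexes III and V had most of their members higher in number 2. Over all genes 21.7% had both number 2 arrays above and 22.0% had both below. In complex III, 6 of 9 members had both above (66.7%) and 1 had both below (11.1%), with a median difference of 0.15. In complex V it was 9 above and 2 below of 17 (52.9% and 11.8%), with a median of 0.07. Complex I was divided, with 10 above and 9 below of 34 (29.4% and 26.5%) and a median of 0.01. Complex IV had 6 above and 4 below of 19 (31.6% and 21.1%) and a median of 0.06. The median over all members was 0.03, against 0.0046 over all genes. With each array left out in turn, the complex III median stayed between 0.09 and 0.20 and the complex V median between 0.04 and 0.07, while those of complexes I and II and of the assembly factors changed sign. With all 4 arrays kept, other settings, among them other probe set choices, gave complex I medians from 0.0044 to 0.13. The ranges were -0.06 to 0.12 for complex II and 0.11 to 0.20 for complex III. They were 0.06 to 0.13 for complex IV and 0.07 to 0.15 for complex V. The low median of complex I thus depended on the setting.

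Uqcrc1, a core protein of complex III, had 11.77 in KO 2 and 11.73 in WT 2, against 11.39 in KO 1 and 11.29 in WT 1, a difference of 0.41 (SE 0.05). Uqcrh, the hinge protein of complex III, had 12.41 and 12.47 in the number 2 arrays (KO, WT), against 12.06 and 12.22 in the number 1 arrays, a difference of 0.30 (SE 0.07). In complex V, Atp5mpl had 11.60 and 11.66 in number 2, against 11.21 and 11.38 in number 1 (difference 0.33, SE 0.08). Atp5b, the catalytic beta subunit, was 0.21 higher (SE 0.03). All of these had both number 2 arrays above both number 1 arrays.

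The opposite order was found for Ndufs7, with 10.51 and 10.61 in number 2 (KO, WT), against 10.92 and 10.93 in number 1 (difference -0.37, SE 0.05). Ndufaf4 had 8.97 and 8.85 in number 2, against 9.48 and 9.39 in number 1 (difference -0.53, SE 0.07), the largest difference of any member. Cox5a differed by -0.25 (SE 0.09) on the probe set used, while its other probe sets differed by 0.12 and -0.17. Among the tissue isoforms of complex IV, Cox8c (mean 7.91) differed by 0.45 (SE 0.07) and the dim Cox7a1 (mean 4.12) by -0.39 (SE 0.12).

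Other measures moved with the number as well. The 5′ control probe set for 18S ribosomal RNA was at 9.46 in KO 2 and 9.40 in WT 2, against 11.51 in KO 1 and 11.59 in WT 1. The 5′ probe set for Gapdh was at 13.10 in KO 2 and 13.02 in WT 2, against 12.54 in KO 1 and 12.72 in WT 1. Its 3′ probe set moved less, at 12.99 and 12.91 in number 2 (KO, WT), against 12.69 and 12.75 in number 1. For beta-actin the 5′ probe set was at 14.03 and 13.87 in number 2, against 13.62 and 13.60 in number 1. The 3′ probe set of beta-actin was at 14.34 and 14.26, against 14.29 and 14.23. The balance of 5′ and 3′ signal thus also differed by number. Dermal fibroblast markers were lower in number 2 in 11 of 12 genes, and melanocyte markers in 5 of 5. The part of these measures in the member differences was not tested.

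**Figure D4:**
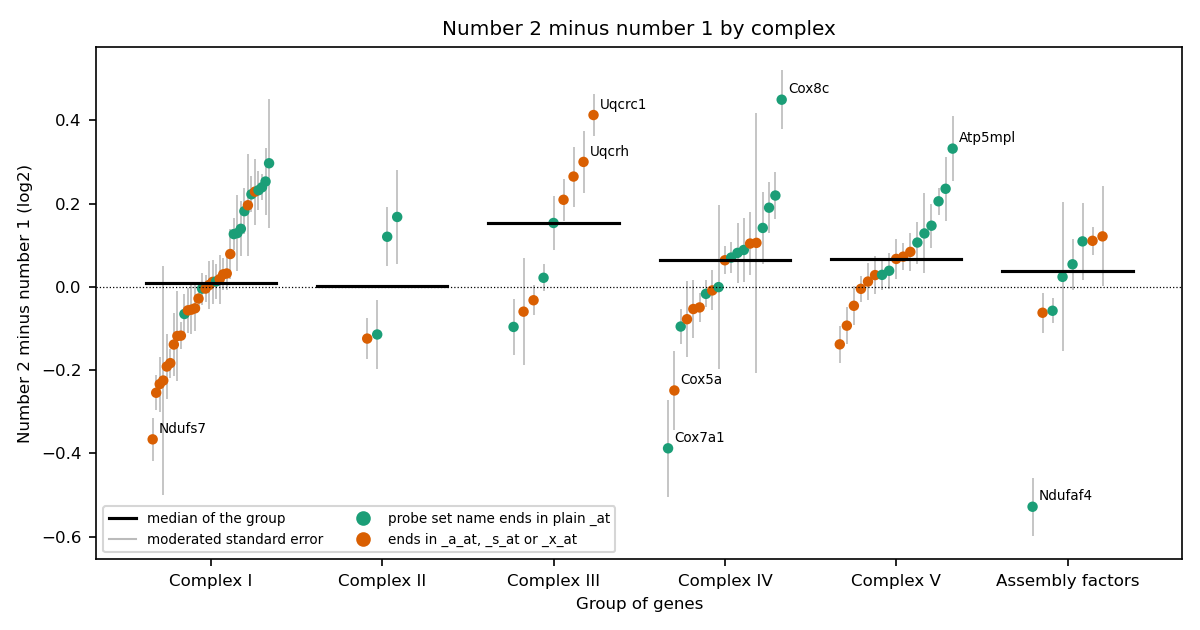
Number 2 minus number 1 difference on the log2 scale (vertical axis) for each gene, by complex (horizontal axis). Points are genes, grey bars moderated standard errors and black lines group medians; green points are probe sets whose names end in plain _at and orange points those ending in _a_at, _s_at or _x_at. Green points lie mostly above 0 (32 of 42) and orange points are divided (22 of 49 above 0).

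The kind of probe set went with the direction of the number difference, a pattern seen only after the values were known. Affymetrix names end in plain _at where the probes are unique to 1 transcript, in _a_at where they match several transcripts of a gene, in _s_at where they match several genes and in _x_at where some probes may cross-hybridise. The 42 members read by plain probe sets had a median number difference of 0.11, with 22 above and 6 below. The 49 members read by the other kinds had a median of -0.01, with 12 above and 14 below. Over all genes, 3109 of 14421 plain probe sets were above and 2917 below, and of 3772 others 832 were above and 1093 below. Among the top 10% of genes by level, both kinds were slightly below 0, with medians of -0.04 for plain and -0.03 for the others.

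The same contrast held between probe sets of 1 gene. In 31 members with probe sets of both kinds above the median gene, the plain one had the higher number difference in 30, with Ndufa3 the exception. The median was 0.18 for the plain probe sets and -0.06 for the others, a median gap of 0.25, and in 19 members the kinds had opposite signs. For Ndufs7 the plain probe set gave 0.10 and the _a_at probe set -0.37, and for Sdhd the plain one gave 0.17 and the _x_at one -0.34. The order held in 27 of 31 members within KO cells (median gap 0.27) and in 27 of 31 within WT cells (0.18). In 1796 other genes with bright probe sets of both kinds, the plain one was higher in 56.2%, with a median gap of 0.03.

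The KO-WT difference showed no such order, with the plain probe set higher in 12 of the 31 members and a median gap of -0.01. The plain probe set was the brighter one in 8 of the 31, so the rule of highest mean mostly chose the other kind. Which probe set stands for a gene thus set the sign of its number difference in 19 members, and the median number difference over the members was 0.13 when only plain probe sets were used, against 0.03 with the brightest one.

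**Figure D5:**
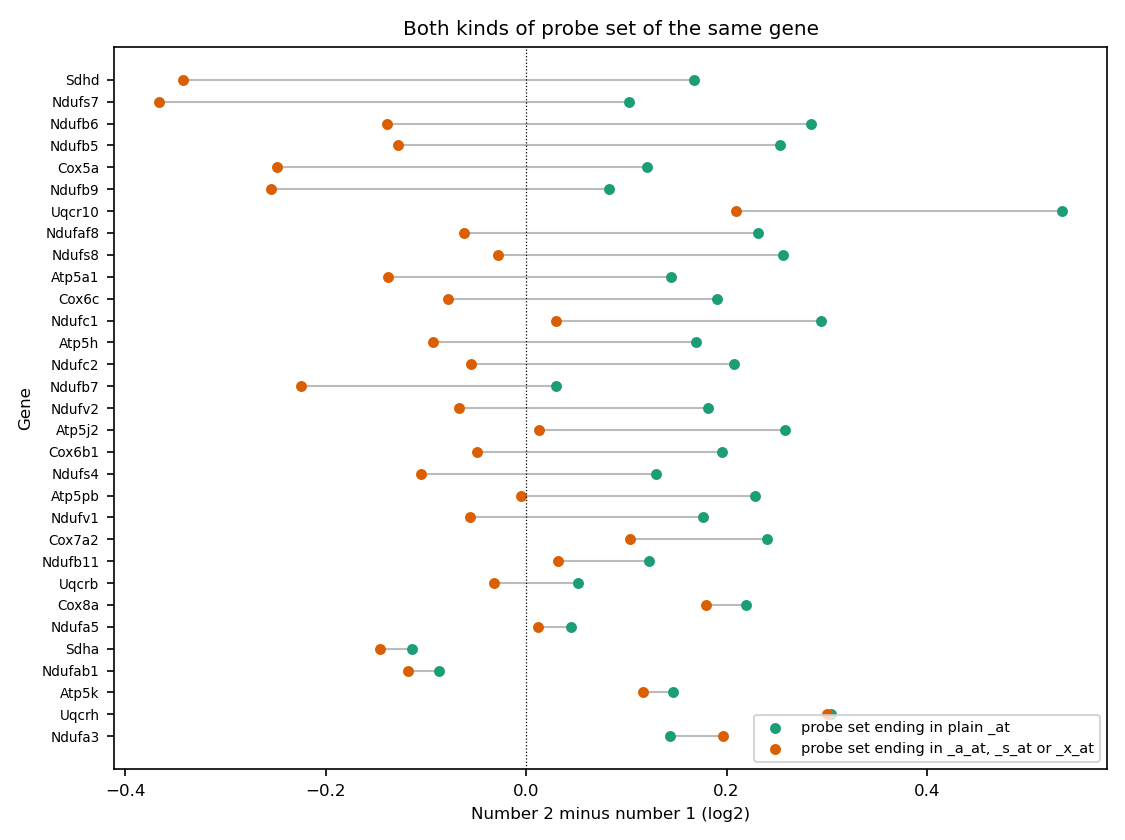
Number 2 minus number 1 difference on the log2 scale (horizontal axis) for the 31 genes (vertical axis) with bright probe sets of both kinds. Green points are plain _at probe sets and orange points _a_at, _s_at or _x_at probe sets of the same gene; the green point lies to the right in 30 genes, and the order is turned in Ndufa3 (0.14 and 0.20).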

How the data were processed

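RNA of 4 one-colour Affymetrix mouse arrays was compared. The authors deposited log2 values. RMA is the tool that the submitters' processing notes name, without its version. Quantile normalization makes array medians nearly equal (5.85 to 5.87 over all probe sets), so a shift shared by all genes cannot be seen. Of 45101 probe sets, 34945 had 1 platform symbol, 932 several and 9160 none here, and 64 were controls. Member gene IDs all matched the RefSeq table (180 of 180 probe sets). Each gene was read by its probe set of highest mean.

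Differences were fitted with limma 3.58.1 (lmFit and eBayes, R 4.3.3), tested on simulated data first, two-sided, without filter or covariates, over 18193 genes with Benjamini-Hochberg adjustment and a threshold of 0.05. The spread comes from 2 arrays a group, so precision is low. In 10 simulations with 200 changed genes each, the fit recovered 35.1% of 2-fold and 68.8% of 4-fold changes at that threshold. It called 2.9 unchanged genes per simulation. A member that did not pass is therefore not shown to be unchanged. SE is limma's moderated standard error.

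The members, gene lists and tests were chosen with earlier results of these data known. Named members were, per complex, the 3 of largest KO-WT and the 2 of largest number difference, members with an unadjusted KO-WT p under 0.05, listed catalytic subunits, tissue isoforms with common partners and X-linked members, and of each other list the 2 genes of smallest p. Of these, Uqcr11, Cox7a2 and the genes of the biogenesis, ubiquinone, tricarboxylic acid cycle and glycolysis lists are not described singly here. Members named beyond this rule (among them Ndufs4, Uqcr10, Atp5j2 and those in the comparison of probe set kinds) were chosen after their values were seen. Alternatives were renormalization, array centring, a dim-gene filter, other probe set choices, other eBayes settings, member rules, a replicate block and each array left out.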

Additional observations from a re-analysis of the deposited data

How the results depend on the processing

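No setting put a member past an adjusted p of 0.05 with limma in either contrast. The count of members past an unadjusted p of 0.05 in the KO-WT contrast, 3 with the chosen settings, was 5 when probe sets were averaged per gene, 7 of the 180 member probe sets tested singly, and 5 to 9 with an array left out, where the lone array of a group is assumed to vary like the others. With the replicate block it was 4, with the median difference at -0.0102 as without it. The number contrast gave 23 members as fitted (8.2% of all genes higher, 9.5% lower) and 44 of 180 probe sets tested singly. Shares of all genes or probe sets past the unadjusted threshold were not counted under the other settings. The changes in these counts therefore cannot be set against a background. The deviations of KO and WT arrays of the same number correlated at 0.65 over the members and 0.56 over all genes. With 2 numbers this does not establish pairing, so the block was kept as an alternative. The median number difference over the members, 0.029, was 0.072 over every probe set, 0.069 without _s_at and _x_at probe sets and 0.129 with plain _at probe sets alone, the last setting chosen after seeing the data. Members with both number 2 arrays above and below both number 1 arrays numbered 34 and 20 as deposited, 47 and 12 after quantile normalization again (30.7% and 24.7% of all genes), and 44 and 15 after centring (41.6% and 19.5%). With an array left out, which loosens the condition, the KO arrays lay above the WT arrays in 19 to 29 members (26.1% to 29.1% of all genes) and below in 15 to 37 (21.0% to 26.0%). Neither normalization moved the median of all genes by over 0.1. The genes past an adjusted p of 0.05 between KO and WT, 2 as fitted, were 0 to 3 over the settings.

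Ndufb7 (0.312 to 0.633), Ndufa4 (0.32 to 0.364) and Ndufaf1 (0.233 to 0.357) kept a positive KO-WT difference with each array left out, and Cox7c a negative one (-0.636 to -0.142). Differences near 0 changed sign with an array left out, which leaves fewer samples, over these ranges: Atp5a1 -0.0686 to 0.123, Atp5b -0.103 to 0.125, Atp5l -0.259 to 0.0282, Atp5mpl -0.309 to 0.0751, Cox4i1 -0.0548 to 0.0344, Cox5a -0.30 to 0.00704, Cox6b1 -0.0507 to 0.0296, Cox6b2 -0.0541 to 0.0931, Cox7a1 -0.0761 to 0.415, Cox8a -0.202 to 0.0531, Cox8c -0.345 to 0.121, Cyc1 -0.0146 to 0.161, Ndufa1 -0.0185 to 0.0105, Ndufa3 -0.326 to 0.0082, Ndufaf4 -0.161 to 0.383, Ndufb4 -0.219 to 0.34, Ndufs1 -0.0122 to 0.221, Ndufs7 -0.266 to 0.15, Ndufs8 -0.0217 to 0.0114, Sdhb -0.0355 to 0.174, Sdhc -0.139 to 0.0343, Sdhd -0.0117 to 0.288, Uqcrc1 -0.156 to 0.288, Uqcrh -0.285 to 0.0613. The sign also turned after quantile normalization again for Cox6b1 (0.0177), Ndufa1 (0.0147) and Ndufs8 (0.00386), and with plain _at probe sets for Cox5b (-0.041), where another probe set is read; the cause was not tested. The lowest adjusted p and all of the signs above rest on 2 arrays a group. Signal over background was not tested, since the table gives no detection calls.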

Other observations

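Some subunits are read by probe sets that carry more than 1 gene symbol and stood in no count above. A probe set shared by Ndufs6, an accessory subunit of complex I, and Ndufs6b had 11.05 and 11.36 in KO arrays, against 11.06 and 11.35 in WT arrays. It thus differed little by genotype (0.0039) and by 0.30 between number 2 and number 1. One shared by Ndufa11, another accessory subunit, and Ndufa11b had 11.46 and 11.66 in KO, against 11.53 and 11.62 in WT, with a number difference of 0.14. One shared by Ndufab1 and its pseudogene had 10.84 and 10.60 in KO, against 10.60 and 10.56 in WT, where the groups overlapped narrowly. Of the 10 such probe sets, none had both KO arrays above both WT arrays.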
